A study of Mus musculus with 6 samples.

Results

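The 10 genes of the glutathione, thioredoxin and NRF2 system were followed in RNA from splenic CD8+ T cells of mice given 1 of 2 diets. They are a list of symbols (Nfe2l2, Keap1, Gclc, Gclm, Gsr, Txnrd1, Srxn1, Prdx1, Gpx4 and Slc7a11), and all 10 were found among the 26181 genes of the deposited table. All 10 passed the minimum level for testing, which was 10 normalised counts on average over all 6 libraries. The groups were 3 CDAHFD libraries and 3 ND libraries, all from wild-type C57BL/6 mice that were 6 weeks old when a feeding period of 7 weeks began. CDAHFD usually names a high-fat diet without choline whose protein is replaced by defined amino acids, used in mice to bring on liver fibrosis, and ND is the comparison diet, which the labels do not spell out. The labels do not say whether animals were pooled or separate for each library, nor how pure the isolated cells were, so p-values measure the spread between these libraries, which may be technical.

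Cells hold oxidants in check with 2 thiol systems. Glutathione, a small peptide made from cysteine, glutamate and glycine, is spent by peroxidases and restored by a reductase, and thioredoxin is restored by a reductase of its own and feeds the peroxiredoxins. Many genes of both systems are targets of NRF2, the product of Nfe2l2. NRF2 is bound by KEAP1 and degraded until oxidants or electrophiles modify KEAP1, so that much of its control acts on the protein and is not seen in messenger RNA. In mouse T cells, glutathione synthesis is known to be needed for growth after activation, and Gpx4 is known to protect the cells from ferroptosis, a death by lipid peroxides.

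The largest rises were those of Slc7a11 and Srxn1, which were scarce in ND libraries, and the next were those of the glutathione enzymes Gsr and Gclm. Slc7a11 was 7.40-fold higher and Srxn1 4.88-fold higher in CDAHFD than in ND libraries, and Gsr was 1.90-fold and Gclm 1.55-fold higher. Prdx1, Nfe2l2, Txnrd1 and Gclc rose by less than 1.5-fold, and Keap1 and Gpx4 did not pass the test. Of the 10 genes 8 were called, where 47.1% of all genes tested were. All 8 were higher and 0 lower, where 24.6% of the 15819 genes tested were called higher and 22.5% lower (limma, adjusted p under 0.05 over all genes tested, which is what "rose" and "fell" mean here). At 1.5-fold or more, 4 of the 10 were called higher against 13.6% of all genes, and at 4-fold or more 2 of the 10 against 4.15%. In 9 of the 10 the groups did not overlap (54.3% of all genes), 8 of them higher (27.8%) and 1, Gpx4, lower (26.5%). The median log2 fold change of the 10 genes was 0.28, and that of all genes tested was -0.01.

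**Figure D1:**
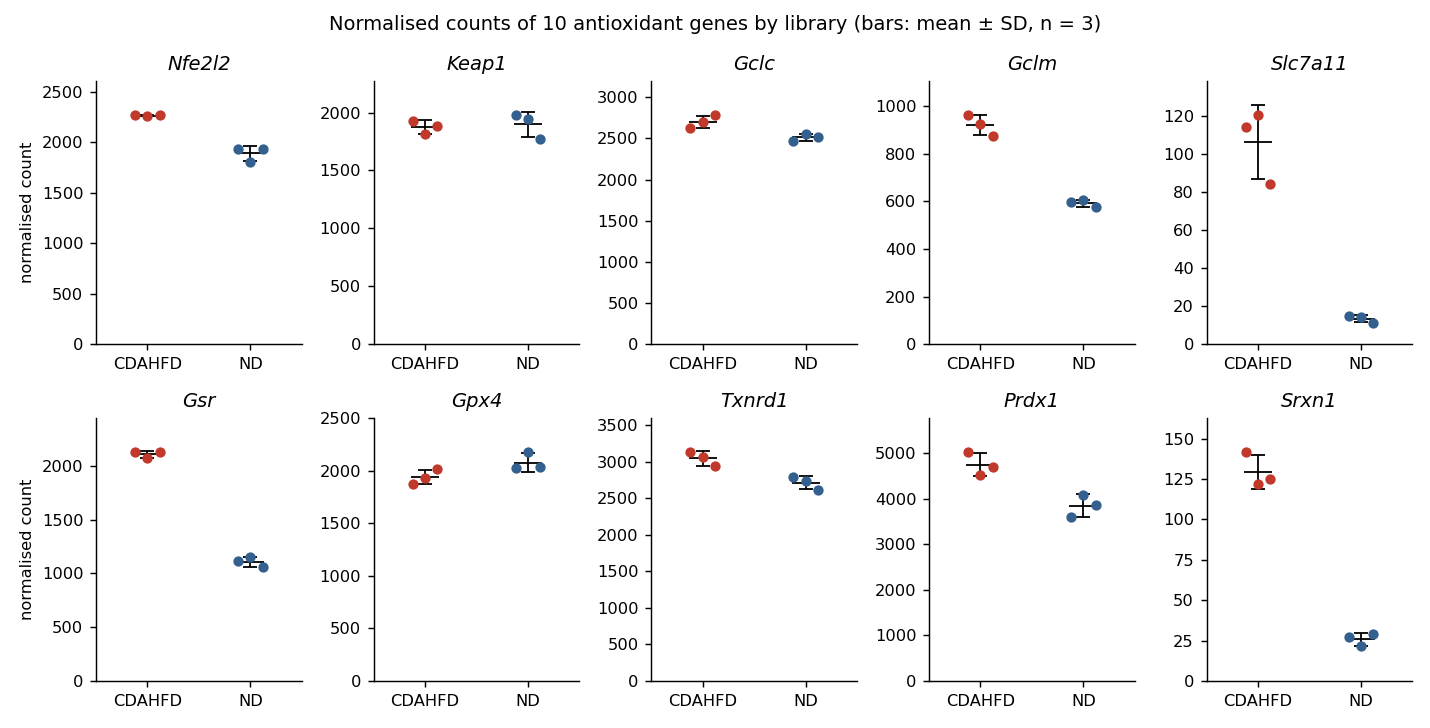
Normalised counts (y axes, from 0) of the 10 genes in each of 3 CDAHFD libraries (red) and 3 ND libraries (blue), with the mean and SD as bars. The groups are apart in every panel except that of Keap1, though only narrowly for Gpx4. Groups did not overlap in 54.3% of all genes tested. Relative to each panel's own scale, the gap is widest for Slc7a11 and Srxn1.

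Each library had 25314988 to 28067393 reads on genes, and genes of other cell types rose in the CDAHFD libraries. All 14 macrophage markers tested rose, with a median log2 fold change of 3.03, and their summed level was 149798 to 163202 normalised counts in CDAHFD against 16091 to 17688 in ND libraries. Vsig4 among them had an ND mean of 6.91, below the minimum level, and was tested only because of its level in the CDAHFD libraries. Of 13 erythroid markers 11 rose and 0 fell, with sums of 10743 to 11009 in CDAHFD against 1592 to 1639.8 in ND libraries, and of 13 monocyte and neutrophil markers 10 rose and 1 fell, with sums of 22074 to 24019 against 15064 to 16518. Markers of CD8 T cells were present in every library and mostly fell slightly: 14 of 16 fell and 1 rose, with sums of 160825 to 166651 in CDAHFD and 193100 to 199583 in ND libraries and a median of -0.27. Dendritic cell markers (6 of 9 fell, 0 rose, sums of 8889 to 9737 against 10947 to 11804) and B cell markers (9 of 10 fell, 1 rose, sums of 21009.7 to 22079.5 against 26691 to 27772) moved the other way. Of 8 plasma cell markers 6 rose and 0 fell, with sums of 66687 to 70408 in CDAHFD against 32866 to 33488 in ND libraries. NK cell markers (4 of 8 rose, 1 fell, sums of 8804 to 9116 against 7130.5 to 7394) and endothelial and platelet markers (2 of 6 rose, 1 fell, sums of 7752 to 8070.0 against 5021 to 5108) were mixed. Of heat shock and handling genes 7 of 11 rose and 1 fell, with sums of 112331 to 118244 in CDAHFD and 73872 to 76751 in ND libraries. Over all genes tested, 24.6% rose and 22.5% fell. None of these markers was at 0 in all libraries. The part of these cells, or of handling, in the changes of the 10 genes was not tested, and in RNA of a whole preparation more cells of a type cannot be told apart from more RNA per cell.

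When libraries were scaled to the 16 CD8 T cell identity genes, the median of all genes tested moved to 0.26 on the log2 scale, and 8932 of all genes were called higher and 858 lower, against 3886 and 3563 in the main test. All 10 genes were then called higher. Keap1 (0.26) stood at that median and Gpx4 (0.18) below it, while Slc7a11 (3.16), Srxn1 (2.56), Gsr (1.21) and Gclm (0.91) stood well above it. Such scaling moves every gene by nearly the same amount, so these places against the median are those of the main test. It does not remove the RNA of other cell types.

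**Figure D2:**
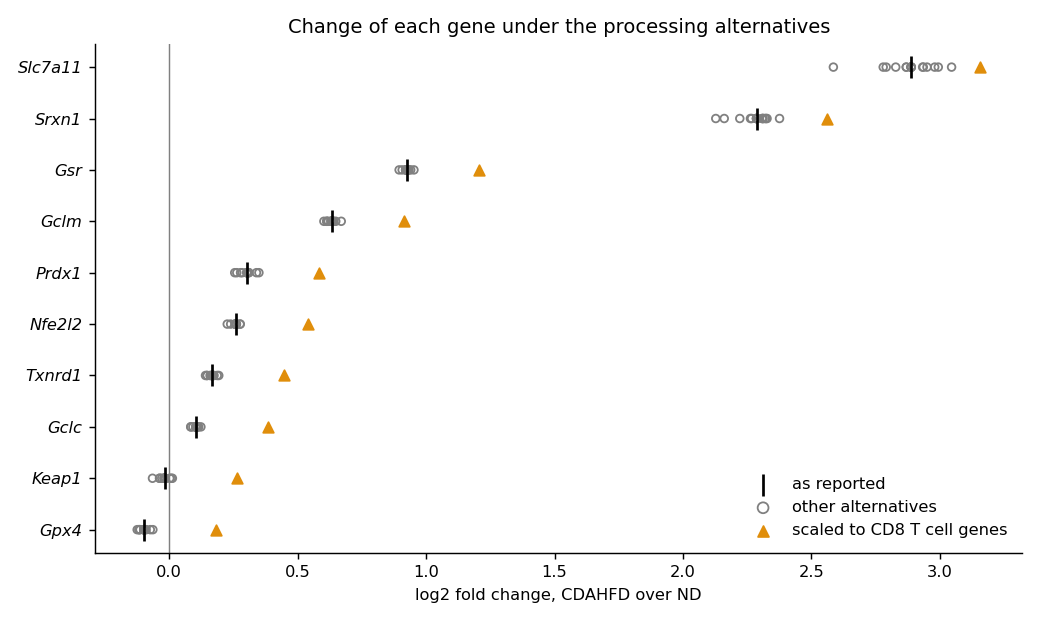
Log2 fold change of CDAHFD over ND (x axis) of each of the 10 genes as reported (black bar), under the other alternatives of processing (grey circles) and when scaled to CD8 T cell genes (orange triangles). The triangles are shifted to higher values for all 10 genes, and Keap1 and Gpx4 change side of 0.

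The upstream sequences of 5 of the rising genes are shown because they carry the letters through which NRF2, and for Slc7a11 the amino acid stress factor ATF4, are known to act. Each is the 250 bases before the RefSeq start site (build GRCm38.p6, the assembly of mm10), printed 5′ to 3′ on the gene's strand. Capitals mark the antioxidant response element core, searched as TGACNNNGC or TGAGNNNGC on both strands, so that a match on the other strand appears as its reverse complement. In Slc7a11 capitals also mark TGATGNAAN, the core of the amino acid response element.
Slc7a11 (chr3:50443614-50443863, minus strand): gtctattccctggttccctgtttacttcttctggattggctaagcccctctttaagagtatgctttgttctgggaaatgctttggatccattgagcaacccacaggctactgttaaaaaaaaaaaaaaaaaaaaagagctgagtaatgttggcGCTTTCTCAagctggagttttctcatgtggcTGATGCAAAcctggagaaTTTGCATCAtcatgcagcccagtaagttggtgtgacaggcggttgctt
Srxn1 (chr2:152105274-152105523, plus strand): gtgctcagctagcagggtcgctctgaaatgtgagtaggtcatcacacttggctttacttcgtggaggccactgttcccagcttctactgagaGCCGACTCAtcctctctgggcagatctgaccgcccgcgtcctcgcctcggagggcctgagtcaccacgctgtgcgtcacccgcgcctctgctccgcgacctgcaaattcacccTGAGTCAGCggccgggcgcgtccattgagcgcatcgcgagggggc
Gclm (chr3:122245307-122245556, plus strand): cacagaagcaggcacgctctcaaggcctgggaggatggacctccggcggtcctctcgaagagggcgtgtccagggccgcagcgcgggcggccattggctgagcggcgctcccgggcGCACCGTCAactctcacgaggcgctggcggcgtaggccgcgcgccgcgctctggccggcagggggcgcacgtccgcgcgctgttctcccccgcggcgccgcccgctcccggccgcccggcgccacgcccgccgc
Prdx1 (chr4:116685349-116685598, plus strand): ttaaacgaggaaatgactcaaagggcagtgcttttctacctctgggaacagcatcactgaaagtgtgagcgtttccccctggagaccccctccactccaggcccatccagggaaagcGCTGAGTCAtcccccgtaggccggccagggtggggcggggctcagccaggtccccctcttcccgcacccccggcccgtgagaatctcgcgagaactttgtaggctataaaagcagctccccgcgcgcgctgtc
Nfe2l2 (chr2:75704664-75704913, minus strand): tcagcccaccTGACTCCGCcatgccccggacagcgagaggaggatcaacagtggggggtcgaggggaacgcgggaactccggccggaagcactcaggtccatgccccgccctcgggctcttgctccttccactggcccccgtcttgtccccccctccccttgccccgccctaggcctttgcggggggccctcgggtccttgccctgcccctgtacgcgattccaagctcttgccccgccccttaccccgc

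Windows were at hand for 8 of the 10 genes (all but Gclc and Gsr), and 6 of the 8 had the antioxidant core in at least 1 window. Some of these genes have several windows, and counted by window the core stood in 6 of their 13. It stood in 23.0% of all 32851 such windows of the mouse genome, so a match is common. In Srxn1 it occurred as TGAGTCAGC, starting 45 bases before the start site, and as TGAGTCGGC on the other strand. The match of Prdx1, TGACTCAGC, and the nearer one of Srxn1 each also hold the letters of an AP-1 site (TGACTCA or TGAGTCA), a combination found in 0.706% of all windows. Gclm held TGACGGTGC, Nfe2l2 TGACTCCGC and Slc7a11 TGAGAAAGC. Txnrd1 had the core in 1 of its 3 windows, and no window of Keap1 or of Gpx4 held it. The Slc7a11 window also held TGATGCAAA on both strands, starting 66 and 48 bases before the start site. The letters TGATGNAAN stood in 3.44% of all windows, and at least 2 such matches, a count looked up after this window was seen, in 0.0396% (13 windows). A match describes the sequence and says nothing of whether a factor was bound in these cells.

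The regulators themselves moved little. Nfe2l2 (chr2:75675513-75704641), which encodes NRF2, had 2267, 2262 and 2266 normalised counts (read counts divided by a factor for each library) in the CDAHFD libraries, against 1935, 1806 and 1937 in the ND libraries. The CDAHFD libraries were nearly equal and all above the ND libraries, of which replicate 2 was lowest. Nfe2l2 rose by 0.26 on the log2 scale (SE 0.05, limma adjusted p = 2.94e-05), which is 19.7% more. Keap1 (chr9:21229730-21239361), which holds NRF2 down, had 1931, 1812 and 1886 normalised counts in CDAHFD and 1976, 1948 and 1774 in ND libraries, so the groups overlapped. Its log2 fold change was -0.02 with a 95% interval of -0.12 to 0.09 (limma adjusted p = 0.816). An antisense gene, Gm16754, shares 510 exon bases with Keap1 and had 59.7 to 76.5 normalised counts in CDAHFD and 57.1 to 66.9 in ND libraries, and since the strand setting of the counting is not given, reads of this pair cannot be told apart.

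The ratio of Nfe2l2 to Keap1 does not depend on how a library was scaled. It was 1.17, 1.25 and 1.20 in CDAHFD libraries, against 0.979, 0.927 and 1.09 in ND libraries, with no overlap. An exact two-sided permutation test gave p = 0.1 (also 0.1 when adjusted over the 3 ratios tested), the smallest value that 20 regroupings of 3 against 3 allow. How often ratios of other gene pairs do not overlap was not computed. Of the single genes tested, 54.3% did not.

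Among the other 16 genes listed as regulators and partners of NRF2, 5 were higher, 5 lower and 6 not called, with a median log2 fold change of 0.06. For this and every other list, the shares over all genes tested were 24.6% higher and 22.5% lower. Mafg, a small Maf protein that pairs with NRF2 on DNA, had the smallest adjusted p of them and rose to 916 ± 46.5 normalised counts in CDAHFD against 583 ± 35.7 in ND libraries (SD, n = 3 each; log2 fold change 0.65). Sqstm1, whose product p62 takes KEAP1 to autophagy and which is itself an NRF2 target, stood at 6612 ± 52.7 in CDAHFD and 5282 ± 219 in ND libraries and rose. Nfe2l1, a relative of NRF2 that governs proteasome genes, rose to 3756 ± 153 against 2889 ± 141. Bach2, a repressor that competes for the same sites and is known to restrain effector differentiation of T cells, fell to 3071 ± 76.4 in CDAHFD against 3695 ± 35.6 in ND libraries. Its relative Bach1 stood at 1584 ± 82.6 and 1517 ± 39.2 in CDAHFD and ND libraries, and Gsk3b, a kinase that marks NRF2 for a second route of degradation, at 3301 ± 68.4 and 3089 ± 84.3, and neither passed the test.

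Of the genes that supply and make glutathione, the transporter changed most. Slc7a11 (chr3:49892526-50443614) encodes xCT, the light chain that brings cystine into the cell in exchange for glutamate. It had 114, 120.3 and 84.2 normalised counts in CDAHFD libraries, against 14.6, 14.3 and 11.3 in ND libraries. All 3 CDAHFD libraries lay far above the ND libraries, and CDAHFD replicate 3 was the lowest of them. Slc7a11 rose by 2.89 on the log2 scale (SE 0.24, limma adjusted p = 2.91e-11), resting on 12 to 14 reads per ND library and 87 to 127 per CDAHFD library. Of all genes tested, 1.64% had a log2 fold change at least as high. Slc3a2, the heavy chain that carries xCT and other transporters to the surface, rose to 3799 ± 36.6 in CDAHFD against 2702 ± 119 normalised counts in ND libraries (log2 fold change 0.49).

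The enzyme that joins glutamate and cysteine, the rate-limiting step of glutathione synthesis, has a catalytic chain encoded by Gclc and a modifier chain encoded by Gclm. Gclm (chr3:122245557-122270732) had 962, 926 and 876 normalised counts in CDAHFD and 598, 605 and 576 in ND libraries. The groups stood well apart, and the rise was 0.63 on the log2 scale (SE 0.06, limma adjusted p = 1.97e-09). Gm17494, which overlaps Gclm on the other strand, had 15.9 to 23.2 normalised counts in CDAHFD and 14.1 to 26.5 in ND libraries. Gclc (chr9:77754535-77794485) had 2631, 2693 and 2779 in CDAHFD against 2469, 2547 and 2519 in ND libraries. The groups did not overlap, but the difference was 7.52% and its call is fragile. The log2 fold change was 0.10 (SE 0.04, limma adjusted p = 0.0490), and Gclc was called in 7 of 18 alternatives of processing, with adjusted p up to 0.188. The call was lost without any of the libraries other than CDAHFD replicate 1, and the highest p was that without CDAHFD replicate 3.

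The ratio of Gclc to Gclm was lower in every CDAHFD library than in any ND library, being 2.73, 2.91 and 3.17 in CDAHFD libraries against 4.13, 4.21 and 4.37 in ND libraries (difference of log2 ratios -0.53, exact permutation p = 0.1). This is a ratio of counts that are not divided by length, so only its difference between diets can be read. Per kilobase of all annotated exons, a rough measure of level, Gclc stood at 717 ± 19.8 and Gclm at 146 ± 6.88 normalised counts in CDAHFD libraries. In ND libraries Gclc stood at 667 ± 10.5 and Gclm at 94.3 ± 2.42.

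Other genes of glutathione synthesis, breakdown and cystine supply went both ways, with 6 of 14 tested rising, 4 falling and 4 not passing the test (median log2 fold change 0.09). The 6 include Chac1, described below, whose ND mean of 5.51 normalised counts was below the minimum level for testing. Lap3, a leucine aminopeptidase, rose to 1644 ± 32.8 in CDAHFD against 817 ± 20.1 normalised counts in ND libraries. Cndp2, a dipeptidase that splits cysteinylglycine, a breakdown product of glutathione, rose to 3115 ± 49.2 against 1970.4 ± 65.3. Ggt1, which starts the breakdown of glutathione outside the cell, fell to 935 ± 49.6 in CDAHFD against 1745 ± 42.9 in ND libraries (log2 fold change -0.90). Slc25a39, a carrier that takes glutathione into mitochondria, stood at 963 ± 23.0 in CDAHFD and 937 ± 43.6 in ND libraries and did not pass the test, and Ggct, which acts on glutamyl peptides, stood at 534 ± 34.7 and 559 ± 45.05 and did not pass either. Gss, the second enzyme of glutathione synthesis, was named after its value was seen: it stood at 347 in CDAHFD and 334 in ND libraries and was not called.

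Gsr (chr8:33652523-33698163), the reductase that restores oxidised glutathione with NADPH, had 2125, 2069 and 2128 normalised counts in CDAHFD libraries, against 1118, 1148 and 1059.7 in ND libraries. The replicates of each diet were close and the groups far apart. The rise was 0.93 on the log2 scale (SE 0.05, limma adjusted p = 2.81e-15), the smallest adjusted p of the 10 genes. Gpx4 (chr10:80047166-80056439), a selenoprotein that reduces lipid peroxides with glutathione, had 1876, 1933 and 2013 normalised counts in CDAHFD and 2023, 2176 and 2031 in ND libraries. The CDAHFD libraries were all below the ND libraries by a narrow margin, which is true of 26.5% of all genes tested. Gpx4 did not pass the test, with a log2 fold change of -0.10, a 95% interval of -0.20 to 0.00 and a limma adjusted p of 0.0968. Gpx4-ps2, a processed copy 99.6% identical to Gpx4 over 67.2% of its coding sequence, had 266 to 296 normalised counts in CDAHFD and 294 to 337 in ND libraries, and reads of such a pair could be split by the counting.

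Enzymes that use glutathione went both ways, as did all genes tested (24.6% higher, 22.5% lower). Of 26 tested, 12 were higher, 6 lower and 8 not called, with a median log2 fold change of 0.14. Mgst1, a membrane-bound transferase and peroxidase, rose to 456 ± 47.6 in CDAHFD against 47.0 ± 12.2 normalised counts in ND libraries (log2 fold change 3.28), while its relative Mgst2 fell to 1088 ± 50.2 against 1984 ± 66.2. Gsto1 rose to 879 ± 76.4 in CDAHFD against 449 ± 18.2 in ND libraries. Gstm1 rose to 215 ± 7.16 against 55.9 ± 16.2, with reads uncertain because the mu-class transferases are close paralogues. Gstp1, at 1493 ± 80.8 in CDAHFD and 1408 ± 155 in ND libraries, and the glutaredoxin Glrx, at 694 ± 65.3 and 611 ± 59.2, did not pass the test.

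In the thioredoxin system the reductase changed little and the repair enzyme sulfiredoxin much. Txnrd1 (chr10:82833951-82897712), the cytosolic thioredoxin reductase and a selenoprotein like Gpx4, had 3134, 3067 and 2941 normalised counts in CDAHFD libraries and 2786, 2738 and 2614 in ND libraries. The groups did not overlap, and Txnrd1 rose by 0.17 on the log2 scale (SE 0.04, limma adjusted p = 0.00237). Prdx1 (chr4:116685544-116700822), an abundant peroxiredoxin that removes hydrogen peroxide, had 5025, 4519 and 4707 in CDAHFD against 3589, 4089.7 and 3866 in ND libraries. Its groups did not overlap although the replicates of both diets were spread, and it rose by 0.30 on the log2 scale (SE 0.05, limma adjusted p = 7.75e-06). A copy of Prdx1 in the table, Gm21399, which is 98.3% identical over 99.5% of the coding sequence, had 28.4 to 47.6 normalised counts in CDAHFD and 23.5 to 25.0 in ND libraries.

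Srxn1 (chr2:152105516-152111376) encodes sulfiredoxin, which repairs peroxiredoxins that have been overoxidised at their catalytic cysteine. It had 142, 122 and 125 normalised counts in CDAHFD libraries, against 27.1, 21.4 and 29.2 in ND libraries. The lowest CDAHFD library thus stood above every ND library by a wide margin. Srxn1 rose by 2.29 on the log2 scale (SE 0.19, limma adjusted p = 5.54e-11), on 21 to 31 reads per ND library and 129 to 134 per CDAHFD library.

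The ratio of Txnrd1 to Gsr, the reductases of the 2 thiol systems, was 1.47, 1.48 and 1.38 in CDAHFD libraries and 2.49, 2.38 and 2.47 in ND libraries. The groups did not overlap, and the difference of log2 ratios was -0.76 (exact permutation p = 0.1). Per kilobase of all annotated exons, Txnrd1 stood at 430.0 ± 13.8 and Gsr at 765 ± 11.97 normalised counts in CDAHFD libraries. In ND libraries Txnrd1 stood at 383 ± 12.5 and Gsr at 402 ± 16.3. These lengths (7086 bases for Txnrd1, 2754 for Gsr) may differ from those of the RNA present, so the 2 levels compare only roughly.

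**Figure D3:**
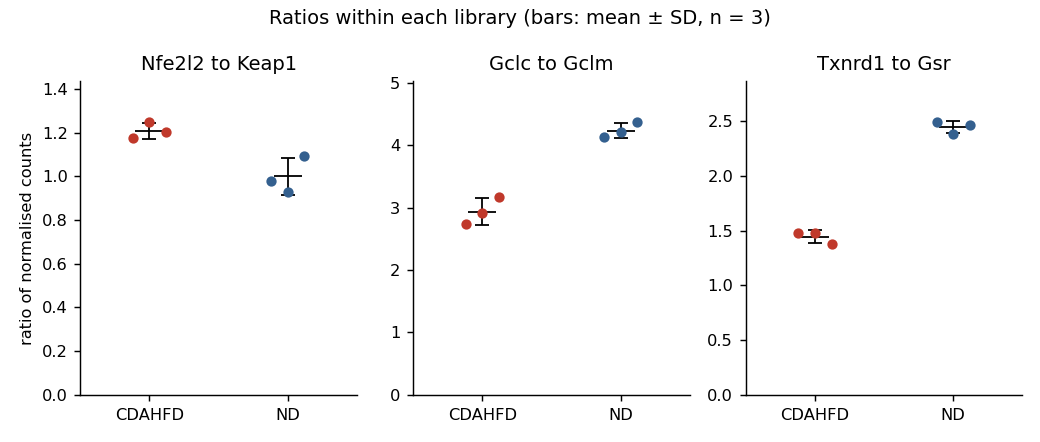
Ratios of normalised counts (y axes, from 0) of Nfe2l2 to Keap1, Gclc to Gclm and Txnrd1 to Gsr in each CDAHFD library (red) and ND library (blue), with the mean and SD as bars. No ratio overlaps between the diets, which is also true of 54.3% of the single genes tested. The ratio of Txnrd1 to Gsr is 1.45 in CDAHFD against 2.45 in ND libraries on average.

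Of the other 21 genes tested from the thioredoxin, peroxiredoxin and methionine sulfoxide reductase list, 7 were higher, 5 lower and 9 not called (median log2 fold change 0.04). Over all genes tested, 24.6% were higher and 22.5% lower. Txn1, thioredoxin itself, rose to 2875 ± 205 in CDAHFD against 2124 ± 186 normalised counts in ND libraries. Sesn2, a stress-induced sestrin, rose to 639 ± 56.4 against 300.1 ± 27.7, whereas its relative Sesn1 fell to 3053 ± 21.5 in CDAHFD against 3996 ± 72.8 in ND libraries. Rrm2, the ribonucleotide reductase chain that is made in S phase, fell to 565 ± 31.1 against 781 ± 10.4. Sesn3, at 8546 ± 262 in CDAHFD and 8885 ± 271 in ND libraries, and the mitochondrial thioredoxin gene Txn2, at 2078 ± 89.3 and 2237 ± 45.3, did not pass the test.

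**Figure D4:**
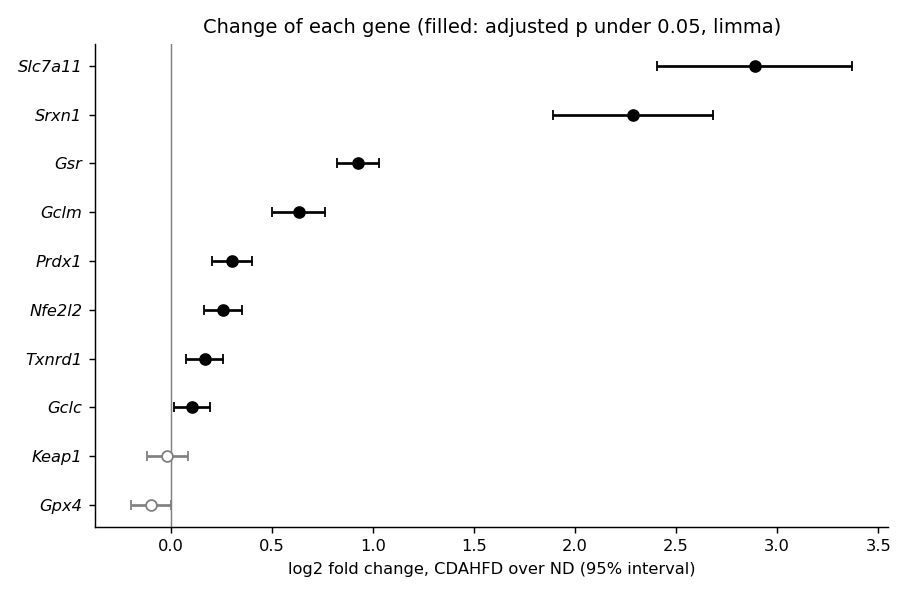
Log2 fold change of CDAHFD over ND (x axis) of each of the 10 genes, with the 95% interval from limma, where filled points passed the test. Slc7a11 at 2.89 and Srxn1 at 2.29 stand apart from the rest, and the open points are Keap1 and Gpx4.

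Levels of different genes can be compared only roughly per kilobase of exon. The length used joins all annotated exons of a gene, which can exceed the RNA present (13922 bases for Slc7a11, 2754 for Gsr). In CDAHFD libraries the order, from the top, was Prdx1 (1561 ± 84.0 normalised counts per kilobase), Gpx4 (1126 ± 40.1), Gsr, Gclc, Nfe2l2 (597 ± 0.742), Txnrd1, Keap1 (399.7 ± 12.8), Gclm, Srxn1 (45.9 ± 3.75) and Slc7a11 (7.63 ± 1.39). In ND libraries Prdx1 (1265 ± 82.4) and Gpx4 (1205 ± 50.1) led with spreads that met, and Keap1 (405 ± 23.2), Gsr and Txnrd1 lay together. Srxn1 (9.19 ± 1.43) and Slc7a11 (0.962 ± 0.130) were last in both diets.

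The wider set of NRF2 targets, 26 genes that are not among the 10, rose more often than it fell. Of 25 tested, 16 were higher, 2 lower and 7 not called, with a median log2 fold change of 0.44. The shares over all genes tested were 24.6% higher and 22.5% lower. The smallest adjusted p values were those of genes of haem and iron handling, which macrophages of the spleen also use. Hmox1, haem oxygenase, rose to 15135 ± 855 in CDAHFD against 2578 ± 57.3 normalised counts in ND libraries (log2 fold change 2.55), and the haem transporter Slc48a1 rose to 2829.8 ± 220.5 against 1013 ± 38.4. The ferritin chains rose as well, Fth1 to 21364 ± 149 in CDAHFD against 10884 ± 508 and Ftl1 to 13428 ± 107 in CDAHFD against 6219 ± 126 in ND libraries. Tkt, a transketolase, at 5426 ± 106 in CDAHFD and 5803 ± 219 in ND libraries, and Akr1b3, an aldose reductase, at 3739 ± 140 and 3991 ± 194, did not pass the test. Nqo1, a target often used to read NRF2 activity, was named after its value was seen: it stood at 17.1 ± 7.55 in CDAHFD and 13.4 ± 2.74 normalised counts in ND libraries and was not called (log2 fold change 0.26, 95% interval -0.52 to 1.04).

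Genes that supply NADPH, which both reductases spend, were called in both directions, as were all genes tested (24.6% higher, 22.5% lower). Of 17 genes tested, 6 were higher, 5 lower and 6 not called (median log2 fold change -0.09). Idh1, the cytosolic isocitrate dehydrogenase, rose to 964 ± 68.5 in CDAHFD against 389 ± 37.8 normalised counts in ND libraries, while its mitochondrial relative Idh2 fell to 1033 ± 33.2 against 1432 ± 78.2. G6pdx, the entry enzyme of the pentose phosphate pathway, rose to 1869.7 ± 56.6 in CDAHFD against 1351 ± 35.2 in ND libraries, and the folate enzyme gene Aldh1l1 rose to 101 ± 13.9 against 32.1 ± 2.74. Me2, a mitochondrial malic enzyme, stood at 2776 ± 148 in CDAHFD and 2959 ± 11.3 in ND libraries and did not pass the test.

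Of 4 genes tested among 5 listed superoxide dismutase and catalase genes, 2 were higher, 1 lower and 1 not called (median log2 fold change 0.15). Over all genes tested, 24.6% were higher and 22.5% lower. Cat rose to 3474 ± 206 in CDAHFD against 2777 ± 25.0 normalised counts in ND libraries and Sod1 to 3729 ± 99.7 in CDAHFD against 3152 ± 103. Ccs, the copper chaperone of Sod1, fell to 500.1 ± 48.8 in CDAHFD against 692 ± 61.4 in ND libraries. The mitochondrial Sod2, at 1388 ± 112 in CDAHFD and 1326 ± 25.9 in ND libraries, did not pass the test.

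Genes of ferroptosis beside Gpx4 included 6 of 18 that rose, 3 that fell and 9 that were not called (median log2 fold change -0.00). The shares over all genes tested were 24.6% higher and 22.5% lower. Slc40a1, the iron exporter ferroportin, which is abundant in spleen macrophages, rose to 21171 ± 1649 in CDAHFD against 2744 ± 245 normalised counts in ND libraries. Ncoa4, which delivers ferritin for breakdown, rose to 2607 ± 82.5 in CDAHFD against 1948 ± 72.3, and the lipoxygenase Alox5 rose to 98.7 ± 6.79 against 37.3 ± 10.2. Tfrc, the transferrin receptor, fell to 2035 ± 93.6 in CDAHFD against 2594 ± 169 in ND libraries. Acsl4, which loads membranes with oxidisable fatty acids, stood at 2202 ± 91.9 in CDAHFD and 2222 ± 28.0 in ND libraries, and Coq2, of coenzyme Q synthesis, at 1369 ± 64.6 and 1467 ± 52.7, and neither passed the test.

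Slc7a11 is also a known target of ATF4. Of 23 other targets and partners of ATF4 tested, 8 were higher, 6 lower and 9 not called (median log2 fold change 0.10). Over all genes tested, 24.6% were higher and 22.5% lower. Asns, asparagine synthetase, rose to 177 ± 16.02 in CDAHFD against 44.1 ± 5.68 normalised counts in ND libraries (log2 fold change 1.98), and Cebpb rose to 798 ± 61.7 against 298 ± 14.1. Sesn2 and Slc3a2, described above, are on this list too. All 6 lower genes were named after their values were seen. They were Psat1 (log2 fold change -0.45), Psph (-0.36), Slc7a5 (-0.27), Mthfd2 (-0.24), Phgdh (-0.22) and Slc1a5 (-0.15). Ddit3, Atf3 and Trib3, named likewise, were among the 9 not called. Atf4 itself, at 3297 ± 51.0 in CDAHFD and 3350.4 ± 59.6 in ND libraries, and the serine pathway gene Shmt2, at 2904 ± 9.10 and 3109 ± 84.7, did not pass the test. Chac1, which breaks down glutathione in the cytosol, was named after its value was seen and rose to 17.6 ± 7.57 in CDAHFD against 5.51 ± 4.32 in ND libraries. Its ND mean was below the minimum level for testing, so Chac1 was tested only because of its level in the CDAHFD libraries. Its call thus rests on few counts and on a level set by the group in which it was higher. Slc6a9, also among the 8 that were higher, had an ND mean of 4.78 and shares the limit of being tested only through the CDAHFD libraries.

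Gpx4 and Txnrd1 need selenoprotein synthesis, though not necessarily each gene listed for it here. Of 9 such listed genes, 1 was higher, 2 lower and 6 not called (median log2 fold change 0.01). The shares over all genes tested were 24.6% higher and 22.5% lower. Scly, which recovers selenium from selenocysteine, rose to 797 ± 12.3 in CDAHFD against 666 ± 18.3 normalised counts in ND libraries. Eefsec, the elongation factor for selenocysteine, fell to 742 ± 14.4 in CDAHFD against 907 ± 26.5, and Sephs1 fell to 1123 ± 24.2 against 1322 ± 10.6. Secisbp2, which binds selenoprotein messengers, stood at 1974 ± 67.0 in CDAHFD and 1963 ± 130 in ND libraries, and Sepsecs, which makes the selenocysteine tRNA, at 891 ± 23.0 and 869 ± 26.2, and neither passed the test.

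**Figure D5:**
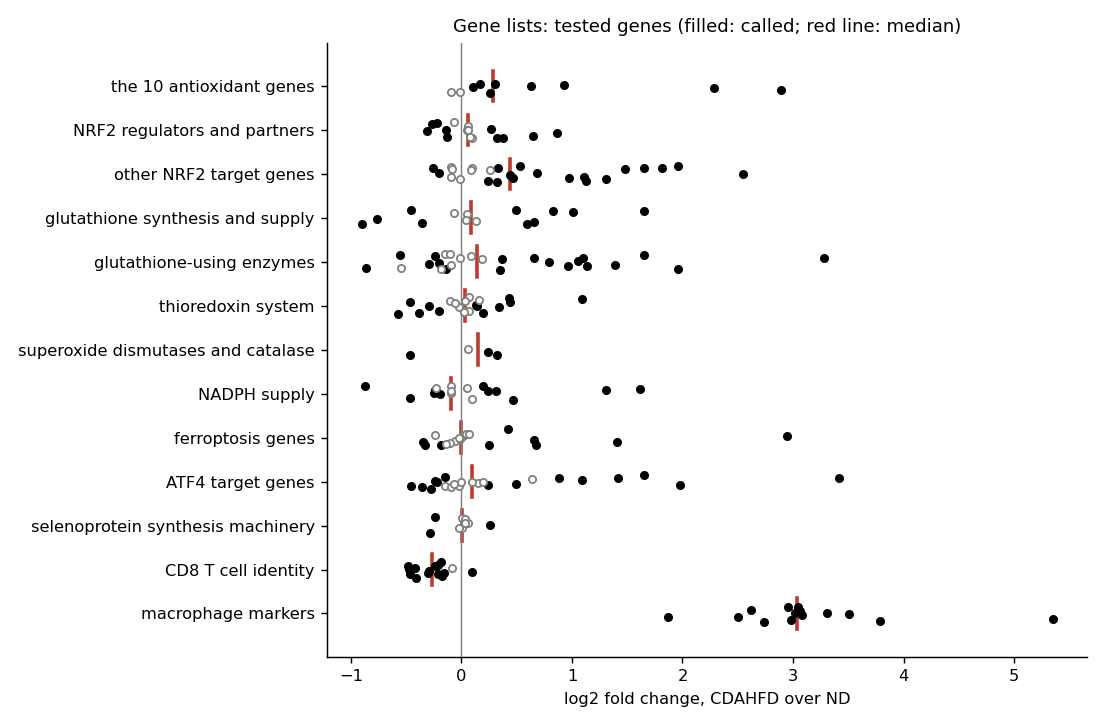
Log2 fold change of CDAHFD over ND (x axis) of every tested gene of the pathway lists, the CD8 T cell identity genes and the macrophage markers (rows), where filled points passed the test and the red line is the list's median. The 10 antioxidant genes have a median of 0.28, the other NRF2 targets 0.44, the CD8 T cell genes -0.27 and the macrophage markers 3.03.

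The genes whose pattern over the 6 libraries was most like that of Slc7a11, the member with the largest change, were Tsku, Casp12 and Sh3bgrl2. Likeness was the Euclidean distance between log2(normalised count + 1) profiles, each centred on its own mean, over tested genes other than predicted models and pseudogenes, and these distances were 0.30, 0.31 and 0.39. Tsku, a secreted protein gene, had 136 ± 7.68 normalised counts in CDAHFD against 18.4 ± 2.07 in ND libraries. Casp12, a caspase gene, had 35.2 ± 5.37 against 4.04 ± 1.19, and Sh3bgrl2, of a family with a thioredoxin-like fold, had 438 ± 15.5 in CDAHFD against 62.1 ± 6.57 in ND libraries. The ND mean of Casp12 was below the minimum level for testing, so it entered this search only because of its level in the CDAHFD libraries.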

How the data were processed

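RNA of splenic CD8+ T cells was sequenced in 6 libraries, made with a whole-RNA or an mRNA kit, per the labels' protocols, which do not say which kit served which library. The signal values in the deposited table are normalised counts, which the authors made by dividing reads per gene by a factor for each library. The genome build was mm10, per the submitters' processing notes. The aligner, counter, strand setting and annotation are not given in the sources used here. Every value in a column was a whole multiple of the column's smallest value above 0 (100% within 0.001), which gave 25314988 to 28067393 reads per library. The columns spelled CDHFD were matched to the CDAHFD samples, the only group besides ND. Libraries of the same diet differed by more than sampling noise (a chi-square test gave 2.72 to 5.70 per degree of freedom, over genes with 20 or more reads in the pair), so none repeated another. The first principal component, with 79.4% of the variance, separated the diets, and no library stood apart from its group.

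The main test was limma 3.58.1 in R 4.3.3 (trend and robust estimation) on log2(normalised count + 1), over the 15819 genes that averaged 10 or more normalised counts, comparing the diets with no covariate and adjusting by Benjamini-Hochberg over all of these. It was first tested on simulated data. Fold changes are on that scale, where the added 1 makes differences of scarce genes look smaller. The members and lists were chosen with earlier results of these data known, so no p-value is adjusted over a list and lists are described by counts and medians. Named from each list were the up to 4 called genes with the smallest adjusted p and, for pathway lists, the up to 2 uncalled genes with the highest mean, except where the text says otherwise. That rule also covered the cell type marker, CD8 T cell identity and heat shock lists, but these are given by counts and summed levels, with no gene named except Vsig4. Symbols (26147 of 26181 IDs), coordinates and exon lengths came from GENCODE M21, which uses the same build, and promoter sequences from RefSeq. Copies at 90% identity or more over at least 30% of a coding sequence were sought with blastn 2.17.0. Alternatives were another pseudocount, filter or scaling, other limma settings, edgeR 4.0.16 and DESeq2 1.42.0 on recovered reads, a replicate block, and dropping single libraries. The main test used all 6.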

Additional observations from a re-analysis of the deposited data

How the results depend on the processing

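Slc7a11, Srxn1, Gsr, Gclm, Prdx1, Nfe2l2 and Txnrd1 stayed called higher in all 18 alternatives, at log2 fold changes of 2.59 to 3.16 for Slc7a11, 2.13 to 2.56 for Srxn1, 0.90 to 1.21 for Gsr and 0.60 to 0.91 for Gclm, and the 3 ratios kept their direction without each library. Gclc was called in 7 of the 18. With equal totals per library, 1 of the 10 genes was called lower, Gpx4, at -0.12 (adjusted p = 0.0453). Scaling to the CD8 T cell identity genes gave 8932 genes called higher and 858 lower, against 3886 and 3563, and turned Keap1 to 0.26 and Gpx4 to 0.18. Keap1 ranged from -0.065 to 0.013 when each library was left out in turn. Of the 10 genes, 7 were called with DESeq2, which called 6755 genes in all, and 8 with edgeR, which called 7536. Libraries of the same number did not clearly deviate together (correlations of deviations from the group means of 0.0408, -0.0508 and 0.0623). The values thus gave no sign of pairing by number, but a pairing that leaves little trace would not be seen. With a replicate block 7250 genes and 7 of the 10 were called, Gclc being lost, and not every library correlated best with its own number. Slc7a11 in ND libraries rests on 12 to 14 reads each, which limits the precision of its fold change.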
